A study of Mus musculus with 34 samples.

Results

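Wide H3K27ac domains were taken as the peaks of at least 4 kb in the H3K27ac peak list of activated mouse B cells, and 1022 of the 23938 peaks in that list qualified. Of the wide domains, 48 overlapped an interval of the deposited super-enhancer list, which holds 48 intervals with exactly 1 wide domain each, and 974 did not. The members were selected on the measured peak width, so widths are given below as a description only. The activated group (aB) was splenic B cells of the CD43- fraction, from C56BL/6J mice (as the design text spells the strain) 6 to 8 weeks old, kept with lipopolysaccharide (LPS) at 10 µg/ml for 3 days. The resting group (rB) was labelled as the same cells at rest, and served as the control. Both groups went through the same magnetic depletion of CD43-positive cells, and no allele or transgene is named for either. The growth field of the rB samples repeats the LPS culture; their titles and source names call them resting, and this decided their group. Of the 34 samples, RNA-seq of 2 aB and 2 rB samples, and peak or contact lists of aB cells from ChIP-seq (H3K27ac, H3K4me3), FAIRE-seq, STARR-seq and Hi-C, were used. Whether replicates came from separate mice is not stated, so the p-values speak only of the spread among these samples, possibly a technical one.

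H3K27ac is acetylation of lysine 27 on histone H3, a mark of active promoters and enhancers, and super-enhancers are long stretches of it, often found near genes that define a cell type. H3K4me3 marks active promoters. FAIRE-seq recovers DNA that is poor in nucleosomes. STARR-seq clones DNA fragments into the transcribed part of a plasmid, where active enhancers are read from their own RNA and outside their native chromatin, and Hi-C records pairs of genome regions in contact. In B cells, LPS acts through a Toll-like receptor, starts proliferation and drives part of the cells towards antibody secretion, a change in which B cell identity factors such as Pax5 give way to Prdm1 (Blimp-1) and Xbp1.

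The promoters of 5 genes are shown because their starts lay in wide domains and because the RNA results turn on them: Laptm5 has the widest domain, Pax5 and Prdm1 are opposing regulators of B cell identity and antibody secretion, Derl3 is a secretion gene that rose, and Snn had the largest fall among the named genes at wide domains. The sequences are RefSeq promoters on GRCm38.p6, from 250 bases before to 50 bases after the start, 5′ to 3′ on the gene's strand, while all domain positions are on mm9. Capitals mark GGGCGG or TATAAA on either strand. They lie at chr4:130913066-130913365, plus strand (Laptm5), chr4:44710645-44710944, minus strand (Pax5), chr10:44458699-44458998, minus strand (Prdm1), chr10:75893148-75893447, plus strand (Derl3) and chr16:11066048-11066347, plus strand (Snn).
Laptm5: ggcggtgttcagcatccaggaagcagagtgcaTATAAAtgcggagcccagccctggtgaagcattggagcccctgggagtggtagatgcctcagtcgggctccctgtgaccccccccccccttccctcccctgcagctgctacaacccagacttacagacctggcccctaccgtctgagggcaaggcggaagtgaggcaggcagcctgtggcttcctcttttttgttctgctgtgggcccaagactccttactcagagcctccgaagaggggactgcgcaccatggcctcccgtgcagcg
Pax5: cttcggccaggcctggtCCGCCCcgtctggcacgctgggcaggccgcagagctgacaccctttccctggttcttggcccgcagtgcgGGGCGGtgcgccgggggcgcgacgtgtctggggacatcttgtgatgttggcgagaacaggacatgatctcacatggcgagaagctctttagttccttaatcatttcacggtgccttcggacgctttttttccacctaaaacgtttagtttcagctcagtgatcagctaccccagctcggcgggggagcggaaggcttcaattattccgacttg
Prdm1: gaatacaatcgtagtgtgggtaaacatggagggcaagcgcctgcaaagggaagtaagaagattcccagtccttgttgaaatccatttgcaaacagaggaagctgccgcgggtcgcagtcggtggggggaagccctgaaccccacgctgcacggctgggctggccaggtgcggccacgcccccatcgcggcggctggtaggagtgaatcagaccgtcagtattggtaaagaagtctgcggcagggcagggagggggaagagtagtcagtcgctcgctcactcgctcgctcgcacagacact
Derl3: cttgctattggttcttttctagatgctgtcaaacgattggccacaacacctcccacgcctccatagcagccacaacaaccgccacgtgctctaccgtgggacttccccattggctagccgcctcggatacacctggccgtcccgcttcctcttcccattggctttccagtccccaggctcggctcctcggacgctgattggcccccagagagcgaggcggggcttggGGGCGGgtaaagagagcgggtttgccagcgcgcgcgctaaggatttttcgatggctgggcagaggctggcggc
Snn: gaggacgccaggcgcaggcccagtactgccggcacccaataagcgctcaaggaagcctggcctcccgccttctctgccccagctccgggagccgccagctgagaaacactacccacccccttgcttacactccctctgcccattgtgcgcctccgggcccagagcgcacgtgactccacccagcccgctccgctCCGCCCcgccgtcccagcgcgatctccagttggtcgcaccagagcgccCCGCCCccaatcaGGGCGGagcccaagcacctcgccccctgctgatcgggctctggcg

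The Snn promoter held 3 GC boxes (GGGCGG on either strand), the Pax5 promoter 2 and the Derl3 promoter 1, and the Laptm5 window held 1 TATAAA and no GC box. Neither motif was found in the Prdm1 window. All 5 starts lay under an H3K4me3 peak. At Snn, Derl3 and Prdm1 the nearest STARR peak centre was 59 bp upstream, 47 bp upstream and 72 bp downstream of the start, and at Pax5 it was 152 bp upstream. At Laptm5 it was 34230 bp downstream, although a FAIRE peak centre lay 79 bp upstream. GC boxes, which Sp-family factors bind, were found in 67.3% of 312 promoters whose start lay in a wide domain, in 72.9% of 1340 with a start in an H3K27ac peak of 2 kb to under 4 kb, in 67.9% of 3983 with a start in a narrower one and in 35.2% of all 22862 promoters of the table (symbols with 1 promoter only). The octamer ATTTGCAT, bound by Oct factors that Pou2af1 assists, was found in 2.56% (8 of 312) of the wide-domain promoters, in 1.64% and 1.26% of those with starts in the 2 kb to under 4 kb and the narrower peaks, and in 1.82% of all. TATAAA was found in 7.37% of the wide-domain promoters, in 7.24% and 5.4% of those in the narrower classes, and in 14.8% of all. The ETS motif CCGGAAGT was found in 2.56% of the wide-domain promoters and in 3.95% of all. It was found in 9.33% and 11.8% of those with starts in the 2 kb to under 4 kb and the narrower peaks. Another ETS motif, GAGGAAGT (PU.1 type), was found in 4.49% of the wide-domain promoters, in 5.22% and 2.84% of those classes, and in 3.32% of all. Both strands were searched, and each motif was counted without regard to the others.

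The wide domains covered 6.15 Mb, which is 18.1% of all bases under H3K27ac although they made up 4.27% of the peaks. Widths ran from 4003 to 25622 bp with a median of 5204 bp. Super-enhancer domains had a median width of 11531 bp, against 5125 bp for the other wide domains, but the classes overlapped. The narrowest super-enhancer domain was 5847 bp wide and lay at Brd2, a bromodomain reader of acetylated histones, and H2-DMa, a chaperone of peptide loading on MHC class II. Of the 67 domains of at least 10 kb, 35 lay outside the super-enhancer list. Just inside the limit stood domains of 4003 to 4009 bp at Arpc2, Asxl1, Foxp1, Chd3 and Trappc3, and just outside stood peaks of at least 3992 bp, among them those at Fam49b, Prdm2, Bend5 and Phgdh. In 127 cases the next wide domain began within 10 kb, while the median gap between neighbours was 407 kb.

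The widest domain, chr4:130453355-130478976, overlapped Laptm5, a lysosomal membrane protein that limits antigen receptor levels in lymphocytes. It held 14 FAIRE peaks and no STARR peak, and H3K4me3 covered 47.6% of it. The next was chr12:114474268-114496063, between Tmem121 and Adam6b, where RefSeq (GRCm38.p6, gene order only) places 31 immunoglobulin heavy chain genes. It held 10 FAIRE peaks and 1 STARR peak, and no H3K4me3 peak. The third, chr6:70683675-70704361, lay between Rprl1 and Rpia, 11.4 kb from Rpia, where RefSeq places 82 immunoglobulin kappa genes, and it too had no H3K4me3 peak, with 11 FAIRE and 3 STARR peaks. The interval of the heavy chain genes held 2 more super-enhancer domains, of 13.9 kb and 11.3 kb, with 4.97% and 76.9% of their bases under H3K4me3. A super-enhancer domain of 9.52 kb lay between Hira and Olfr164 (chr16:19059140-19068663), where RefSeq places 13 immunoglobulin lambda genes. No gene row of the RNA table overlapped these domains, so no RNA value belongs to them.

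Other very wide domains lay at genes of signalling and regulation. Pou2af1, a coactivator of Oct factors, had a domain of 17.0 kb (chr9:51018704-51035740). Pim1, a serine/threonine kinase that promotes survival and growth, had one of 16.4 kb (chr17:29624373-29640760). Grap, an adaptor protein related to Grb2, had the widest domain outside the super-enhancer list at 18.4 kb. A super-enhancer domain of 15.9 kb (chr7:29155946-29171855) held the starts of Zfp36, which destabilises mRNAs with AU-rich elements, and Plekhg2, a guanine nucleotide exchange factor. This domain also overlapped Med29. It had 7 STARR peaks, the most of any wide domain, 14 FAIRE peaks and 41 contacts. Csk, the kinase that restrains Src-family kinases, and Fli1, an ETS transcription factor, had super-enhancer domains of 15.9 kb and 15.8 kb.

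**Figure D1:**
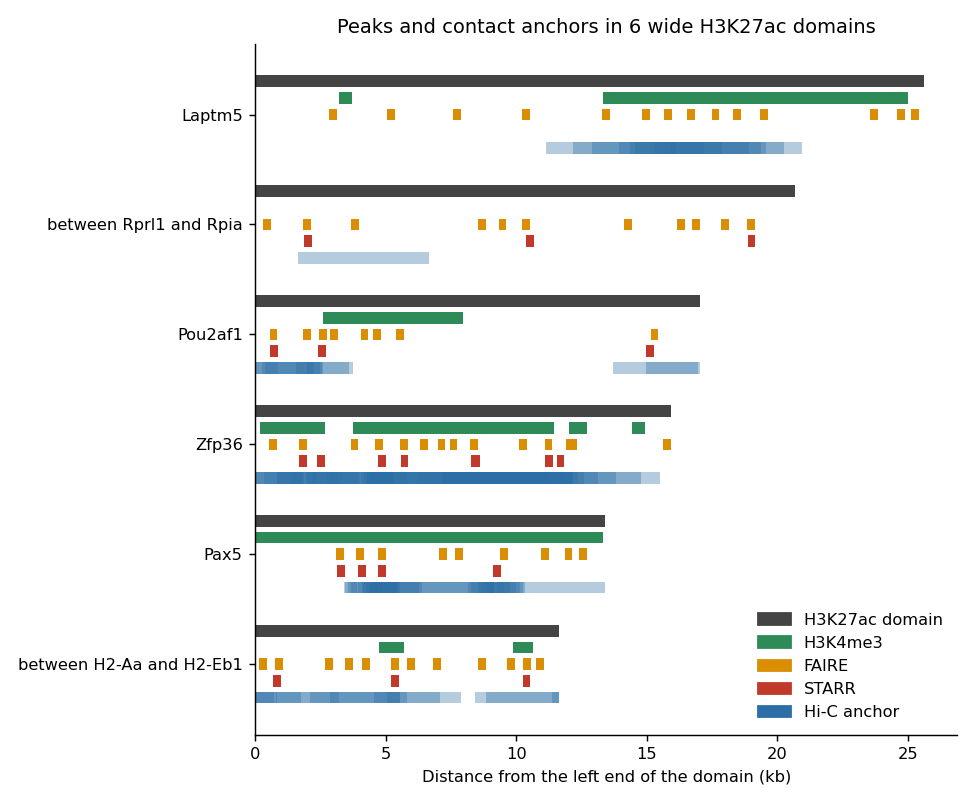
Positions of H3K4me3, FAIRE and STARR peaks and Hi-C anchors (overlapping anchors darker) in 6 wide domains, in kb from the left end of each domain; the grey bar is the H3K27ac domain and labels give the gene or the flanking genes. The Laptm5 domain has no STARR peak, the domain between Rprl1 and Rpia has no H3K4me3 peak, and the Pax5 domain lies almost wholly under H3K4me3 (99.5%).

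An H3K4me3 peak overlapped 828 of the 1022 wide domains (81.0%, exact 95% binomial interval 78.5 to 83.4%). The share was 93.8% in super-enhancer domains (45 of 48, 82.8 to 98.7%), against 80.4% in the other wide domains (77.8 to 82.8%). It was 76.3% in 3624 peaks of 2 kb to under 4 kb and 46.2% in 19292 narrower peaks. Intervals here cover counting error only, and each list is 1 call with no replicate, so no test between classes was made. A longer interval meets more peaks, and the share of bases under H3K4me3 did not rise with width: it was 49.2% over wide domains, 58.6% over peaks of 2 kb to under 4 kb and 50.2% over narrower ones. Within the wide domains, super-enhancer domains had 54.0% of their bases under H3K4me3, against 48.7% in the others.

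The wide domains were a mixture in this respect. H3K4me3 was absent from 194 of them (19.0%), covered under 25% in 133, from 25% to under 50% in 157, from 50% to under 90% in 383 and at least 90% in 155. An H3K4me3 peak of at least 3 kb touched 500 domains (48.9%). Across width bins the share with any H3K4me3 peak was 76.0% at 4 to under 5 kb, 83.0% at 5 to under 7 kb, 86.4% at 7 to under 10 kb and 92.5% at 10 kb or more. Only 3 of the super-enhancer domains lacked the mark, namely the widest one at the heavy chain genes, the one at the kappa genes and one of 13.1 kb between 1700017B05Rik and 4930430J02Rik (chr9:57118505-57131646). A domain outside the super-enhancer list next to Sik1, a salt-inducible kinase, was also 13.1 kb wide without H3K4me3, and ended 0.529 kb from that gene's locus.

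**Figure D2:**
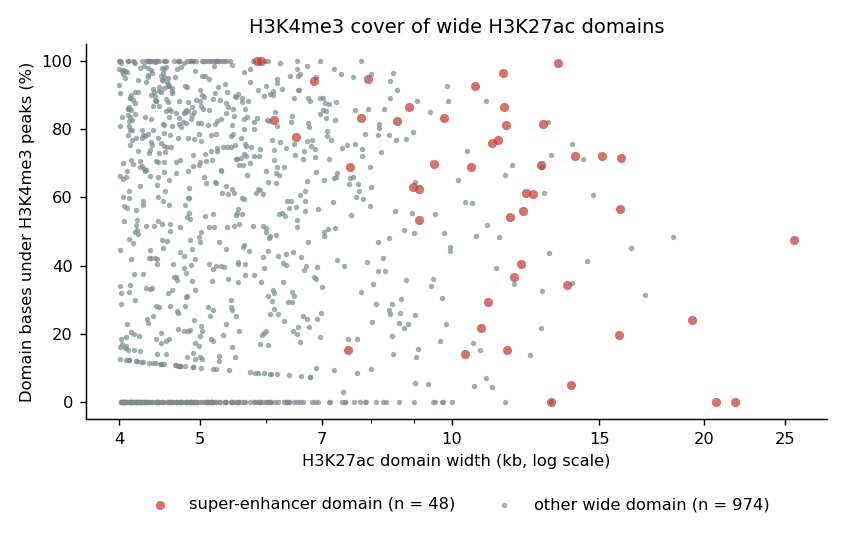
Share of each wide domain's bases under H3K4me3 peaks (%, y axis) against its width (kb, log scale, x axis), with the 48 super-enhancer domains in red and the others in grey. Both classes span the range from no cover to nearly full cover, and 194 domains lie at 0.

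Wide domains held 4059 FAIRE peaks, or 0.659 per kb (exact 95% Poisson interval 0.639 to 0.680), by peak centre. Super-enhancer domains had 0.697 FAIRE peaks per kb (0.630 to 0.770), against 0.656 (0.635 to 0.677) in the other wide domains, so the intervals overlapped. Peaks of 2 kb to under 4 kb had 0.746 per kb (0.729 to 0.764) and narrower ones 0.733. Within the wide class the density was 0.686 per kb at 4 to under 5 kb and 0.613 per kb at 10 kb or more. FAIRE peaks had a median width of 301 bp in the list, so a typical wide domain, with a median of 4, held several separate open sites. Only 7 wide domains held none, among them 5.56 kb at Zmiz1, a transcriptional coregulator, 4.84 kb at Ccm2, a scaffold protein, and 4.52 kb at Ptgir, the prostacyclin receptor.

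STARR peaks numbered 1268 in wide domains, or 0.206 per kb (0.195 to 0.218). The density was 0.211 per kb in super-enhancer domains (0.174 to 0.252), against 0.206 in the other wide domains (0.194 to 0.218), so a base in a super-enhancer domain was not detectably richer in STARR peaks. Peaks of 2 kb to under 4 kb had 0.258 per kb (0.248 to 0.268) and narrower ones 0.259 (0.252 to 0.267). The lowest density, 0.167 per kb (0.141 to 0.196), was in domains of 10 kb or more. Per domain the order was the other way round: 74.3% of wide domains held a STARR peak, 93.8% of super-enhancer domains against 73.3% of the others, compared with 55.7% of peaks of 2 kb to under 4 kb and 23.0% of narrower peaks. The plasmids carried FAIRE DNA, per the design text, so STARR peaks were read mostly where chromatin was open. Of the FAIRE peaks in wide domains 28.5% overlapped a STARR peak, close to the 31.7% and 33.5% in the 2 narrower classes and above the 13.0% of the 30524 FAIRE peaks outside all H3K27ac peaks.

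**Figure D3:**
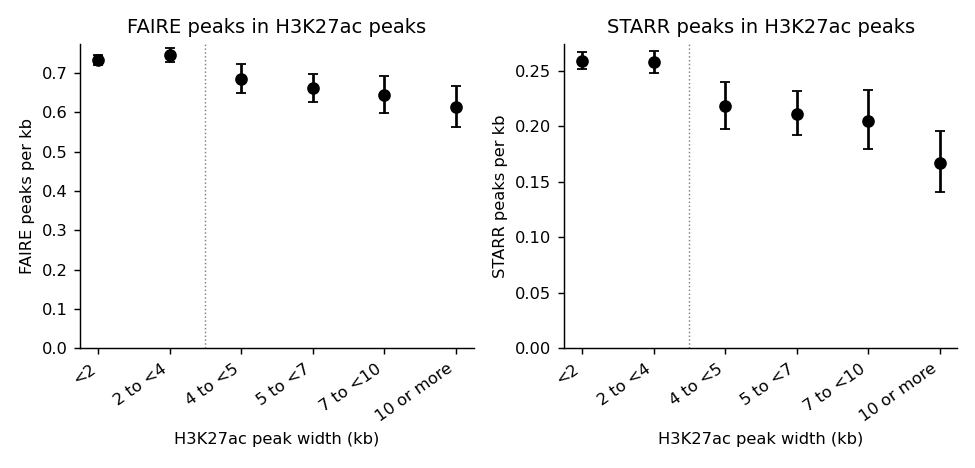
FAIRE peaks (left) and STARR peaks (right) per kb of H3K27ac peak (y axes) by peak width (kb, x axes), with points for the pooled density and bars for the exact 95% Poisson interval; the dotted line is the 4 kb limit. Both densities are lower to the right of the line, at 0.613 FAIRE and 0.167 STARR peaks per kb in domains of 10 kb or more.

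The most STARR peaks were found at the Zfp36 domain (7), and 6 each at 2310001H17Rik, at Rilpl2 and Snrnp35, and at Ap3m2. The Ap3m2 domain was only 4.46 kb wide, with 5 FAIRE peaks and H3K4me3 over 92.5% of it. Junb, an AP-1 subunit, had 5 STARR peaks in 12.3 kb. The domain at Mir22hg, the host of miR-22, and Wdr81 had 5 in 8.77 kb. At the other end, 263 wide domains (25.7%) held no STARR peak. The widest of these were at Laptm5, at Ppp3cc, a calcineurin catalytic subunit (13.9 kb), at B3gnt2, a glycosyltransferase (11.8 kb), and at Txndc5, an endoplasmic reticulum disulfide isomerase (11.6 kb).

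Within wide domains, bases under H3K4me3 were richer in both kinds of peak. FAIRE peaks stood at 0.801 per kb inside H3K4me3 (0.769 to 0.834), against 0.522 outside it (0.497 to 0.548). STARR peaks stood at 0.260 per kb inside (0.242 to 0.279), against 0.154 outside (0.140 to 0.168). The 194 domains without the mark had 0.550 FAIRE and 0.175 STARR peaks per kb, and 66.5% of them still held a STARR peak. STARR peaks were sparse at the edges: the outermost 10% of the width at either end together held 8.44% of them, against 23.0% in the middle 20%. For FAIRE peaks these shares were 14.8% and 20.6%.

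A gene locus of the RNA table overlapped 829 wide domains, and 193 domains, 13 of them super-enhancer domains, overlapped none. The genes numbered 832 of 23812 rows (3.49%), and made up 7.09% of the rows tested between aB and rB below. With the strand taken from RefSeq for 617 of the 832, 430 started inside a wide domain, in 387 domains. The domain reached a median of 1885 bp upstream and 3430 bp downstream of these starts, with more of it downstream in 281 of 430 (65.3%). Of these starts 96.0% lay under H3K4me3, 91.6% had a FAIRE peak centre within 500 bp and 49.8% a STARR peak centre within 500 bp. For starts in peaks of 2 kb to under 4 kb the shares were 98.3%, 95.6% and 57.2%. Of the domains without H3K4me3, 1 held such a start, against 386 of those with the mark.

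Genes at wide domains were highly expressed in both states. Their median level was 26.1 and 24.6 FPKM in the aB samples, against 27.1 and 26.8 FPKM in the rB samples. At super-enhancer domains it was 46.6 and 37.7 FPKM in aB, against 61.4 and 60.8 FPKM in rB. Genes whose widest peak was 2 kb to under 4 kb had medians of 14.7 and 15.1 FPKM in aB and 14.0 and 14.4 FPKM in rB, and those with only narrower peaks 6.69 and 6.8 FPKM in aB and 6.30 and 6.58 FPKM in rB. FPKM is read per length and depth, the depth behind each value is unknown, and sums per sample were 285068 and 285129 in aB and 244602 and 287884 in rB.

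Between aB and rB, 195 of the 770 tested genes at wide domains rose (25.3%) and 261 fell (33.9%), while 28.2% of all 10863 tested genes rose and 26.2% fell (limma on log2(FPKM + 1), Benjamini-Hochberg adjusted p under 0.05 over all tested genes). The other 314 did not pass, and 62 of the 832 were too low to test. The median log2 difference, aB minus rB, was -0.15 at wide domains and 0.03 over all tested genes. At super-enhancer domains 9 of 49 rose and 22 fell, with a median of -0.41. Among genes whose widest peak was 2 kb to under 4 kb, 30.6% rose and 25% fell. Counting changes of at least 2-fold, 119 of the 770 rose and 147 fell at wide domains, against 1525 (14.0%) and 1317 (12.1%) of all 10863 tested genes. At this limit the share of rises at wide domains was not below that of all tested genes. With every gene above 0 in any sample tested, 21.5% at wide domains rose and 28.1% fell, against 17.2% and 18.1% of all. Thus the lower share of rises at wide domains did not hold there. Without a fold limit it did hold in the other fits that kept all RNA samples. It did not hold without aB replicate 2 or without rB replicate 1. Leaving out rB replicate 1 or 2 gave a median log2 difference of -0.15 each time at wide domains, against 0.05 and 0.13 over all tested genes. Fewer genes passed in these fits, at wide domains and over all tested genes. At super-enhancer domains the medians were then -0.42 and -0.5, and -0.36 without aB replicate 2, with fewer rises and falls passing in all of these fits. In whole-culture RNA, fewer cells of a type and less RNA per cell cannot be told apart.

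**Figure D4:**
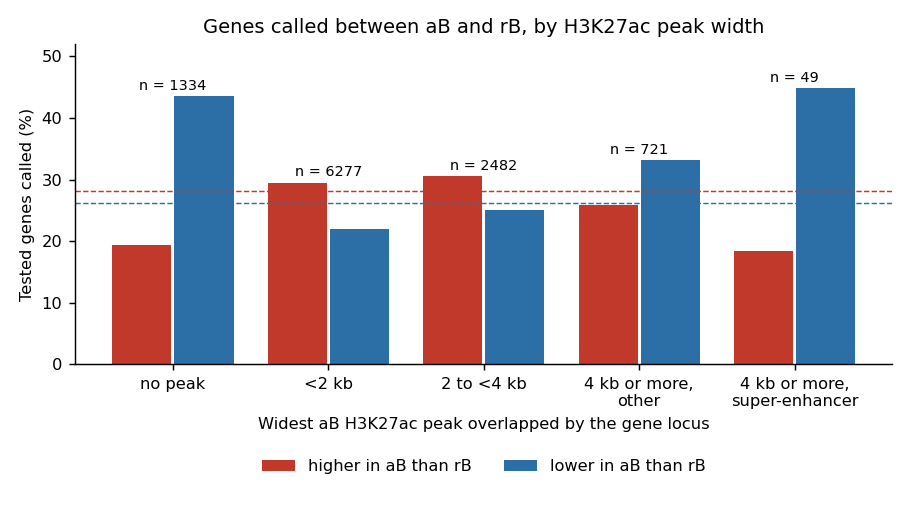
Share of tested genes (%, y axis) called higher (red) or lower (blue) in aB than in rB, by the widest aB H3K27ac peak that the gene locus overlaps (x axis); n is the number tested, and dashed lines give the shares of all tested genes, 28.2% higher and 26.2% lower. Falls exceed rises at wide domains (33.1% against 25.8% outside super-enhancers, and 44.9% against 18.4% in them), as they do among genes with no H3K27ac peak.

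RNA of other blood cells moved between the groups as well, beside 26.2% falls and 28.2% rises over all tested genes. Of 9 macrophage or monocyte markers 8 fell, with a sum of 0.699 and 7.23 FPKM in aB, against 501 and 852 FPKM in rB, and C1qa and C1qb were at 0 in both aB samples. Of 4 tested erythroid markers all fell, with sums of 14.6 and 5.35 FPKM in aB and 1360 and 9060 FPKM in rB. T cell markers summed to 2.72 and 1.83 FPKM in aB and 23.3 and 35.1 FPKM in rB, with Cd3e, Cd3d, Cd3g and Thy1 at 0 in aB; 3 of 3 tested fell. NK cell markers summed to 1.01 and 0.468 FPKM in aB and 6.79 and 17.8 FPKM in rB, with 2 of 2 tested lower, and neutrophil markers to 0 and 0.212 FPKM in aB and 1.40 and 26 FPKM in rB. Dendritic cell markers summed to 27.4 and 16.5 FPKM in aB and 28.3 and 27.3 FPKM in rB, where 4 of 6 fell and Flt3, the one with a wide domain, rose. The 6 B cell markers summed to 2000 and 1430 FPKM in aB and 3220 and 3590 FPKM in rB. None of the macrophage, T cell, NK cell, neutrophil or erythroid markers lay at a wide domain, whereas all 6 B cell markers did. The part of other cells in the RNA differences was not tested.

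Genes of antibody secretion with a wide domain rose without exception. Of 17 matched genes on that list, 8 had a wide domain, as did 7.09% of all tested genes. All 8 rose, and of the other 9, 7 of 8 tested rose, where 28.2% of all tested genes did. The tested gene that did not rise was Sdc1, with 2.16 and 5.17 FPKM in aB and 3.46 and 3.76 FPKM in rB (limma adjusted p = 0.876). Tnfrsf17 was too low to test, with less than 1 FPKM in every sample. Zbtb32, a zinc-finger repressor of activated B cells, had 149 and 131 FPKM in aB, against 1.21 and 1.46 FPKM in rB (log2 difference 5.91, SE 0.155, adjusted p = 8.03e-06), and its domain was 8.41 kb wide. Prdm1, the repressor that ends the B cell programme, had 61.3 and 75.8 FPKM in aB, against 1.23 and 1.26 FPKM in rB (4.94, SE 0.163, adjusted p = 1.58e-05), with a domain of 4.08 kb around its start. Both genes were close to silent in both rB samples and the groups did not overlap, as was true of 80.6% of all tested genes. Xbp1, the transcription factor of the unfolded protein response, had 402 and 466 FPKM in aB and 40.5 and 47.2 FPKM in rB (3.28, SE 0.212, adjusted p = 8.83e-05). Mzb1, an endoplasmic reticulum cochaperone of antibody assembly, had 1536 and 1537 FPKM in aB and 141 and 179 FPKM in rB (3.26, SE 0.246, adjusted p = 0.000144). Each was at least several times higher in both aB samples than in either rB sample.

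Further secretion genes showed the same pattern. Edem1, which sends misfolded glycoproteins to degradation, had a 12.9 kb domain and 109 and 132 FPKM in aB, against 29.2 and 29.4 FPKM in rB (log2 difference 2.0, SE 0.189, adjusted p = 0.000314). Ell2, an elongation factor that favours the secreted form of heavy chain mRNA, had a 10.0 kb domain that did not hold its start. It had 71.8 and 92.5 FPKM in aB, against 8.37 and 10.0 FPKM in rB (3.02, SE 0.191, adjusted p = 8.40e-05). Derl3, a component of endoplasmic reticulum degradation, had 102 and 113 FPKM in aB, against 3.23 and 4.69 FPKM in rB (4.46, SE 0.191, adjusted p = 3.75e-05). None of the 8 genes lay at a super-enhancer domain. All 8 calls held in every alternative that was run.

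B cell identity and signalling genes mostly moved the other way. Of 26 listed genes 21 had a wide domain, 3 of them a super-enhancer domain, while 7.09% of all tested genes had a wide domain. Of the 21, 15 fell, 1 rose and 5 did not pass, with a median log2 difference of -0.99. Over all tested genes 26.2% fell and 28.2% rose. All 5 listed genes without a wide domain fell as well (Cr2, Fcer2a, Bach2, Bcl6 and Btk), although Btk lost its call without aB replicate 1 (adjusted p = 0.0533), rB replicate 1 (adjusted p = 0.139) or rB replicate 2 (adjusted p = 0.149). Pax5, the factor that commits cells to the B lineage, had 35.4 and 34.9 FPKM in aB, against 95.9 and 93.8 FPKM in rB (log2 difference -1.41, SE 0.172, adjusted p = 0.000866). Cd79b, a signalling chain of the B cell receptor, had 497 and 373 FPKM in aB, against 951 and 1243 FPKM in rB (-1.33, SE 0.283, adjusted p = 0.00773). Blk, a Src-family kinase of B cells, had 35.9 and 24.2 FPKM in aB, against 164 and 165 FPKM in rB (-2.44, SE 0.232, adjusted p = 0.000322). For all 3 both aB samples were below both rB samples.

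The exception was Pou2af1, which had 670 and 847 FPKM in aB, against 246 and 272 FPKM in rB (log2 difference 1.54, SE 0.246, adjusted p = 0.00248). Ikzf1, a zinc-finger regulator of lymphocyte development with a 14.0 kb super-enhancer domain, had 104 and 113 FPKM in aB and 109 and 98.5 FPKM in rB, and its samples overlapped. Cd79a, the partner chain of Cd79b, had 530 and 417 FPKM in aB and 766 and 706 FPKM in rB, which did not pass (adjusted p = 0.0679), but did without aB replicate 1 (adjusted p = 0.0465) and under upper quartile scaling (adjusted p = 0.0458). Fewer of the 21 passed without rB replicate 1, rB replicate 2 or aB replicate 2 (median log2 differences -1.13, -1.05 and -0.71). The share of falls over all tested genes was also lower in these fits. Without aB replicate 1 the median was -1.25. With every gene above 0 in any sample tested, 10 of the 21 fell, against 18.1% of all. The Cd79b call was lost without rB replicate 2 (log2 difference -1.14). Pax5 (13.4 kb) and Cd79b (12.5 kb) thus fell in RNA and had wide domains among the widest of the list in aB cells. H3K27ac of rB cells was not analysed here, so no change of these domains can be given.

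**Figure D5:**
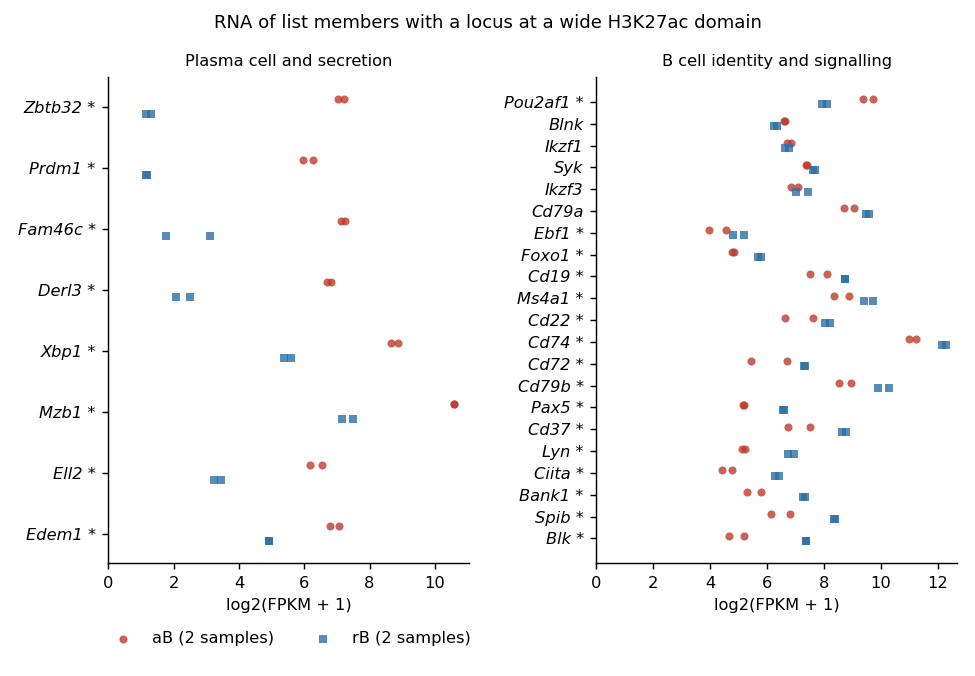
RNA level in log2(FPKM + 1) (x axes) of listed genes with a locus at a wide domain, for plasma cell and secretion genes (left) and B cell identity genes (right), with 2 aB samples as red circles and 2 rB samples as blue squares; an asterisk marks adjusted p under 0.05. All 8 genes on the left are higher in aB, and on the right 15 of 21 are lower and Pou2af1 is higher.

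Large rises at wide domains were also found outside the secretion list. Vegfa, the angiogenic growth factor, had 44.3 and 40.1 FPKM in aB, against 0.592 and 0.592 FPKM in rB (log2 difference 4.76, SE 0.148, adjusted p = 1.16e-05). Alpl, tissue-nonspecific alkaline phosphatase, had 53.0 and 61.6 FPKM in aB, against 2.65 and 1.32 FPKM in rB (4.32, SE 0.234, adjusted p = 6.05e-05), at a 9.43 kb domain. Mef2b, a MADS-box transcription factor whose start lay outside the domain, rose by 3.80 on the log2 scale. Fam46c, a noncanonical poly(A) polymerase of the secretion list, rose by 4.75. In each of the 4 genes both rB samples were far below both aB samples.

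Among genes at wide domains with a mean of at least 5 FPKM in rB and samples that did not overlap, the largest fall was that of Snn (stannin), with 33.3 and 19.9 FPKM in aB, against 244 and 274 FPKM in rB (log2 difference -3.28, SE 0.270, adjusted p = 0.000197). Egr3, an early response zinc-finger factor, had 4.50 and 1.85 FPKM in aB, against 35 and 30.2 FPKM in rB (-3.08, SE 0.300, adjusted p = 0.000355). Cnr2, the cannabinoid receptor of immune cells, had 11.0 and 7.77 FPKM in aB, against 77.2 and 69.0 FPKM in rB (-2.85, SE 0.20, adjusted p = 0.000112). Clec2i, a C-type lectin, and Hivep2, a zinc-finger factor, had log2 differences of -3.03 and -3.01, and Cd97, an adhesion receptor, and Arhgap4, a GTPase-activating protein, of -2.45 and -2.42. These 7 genes had domains between 4.02 and 6.84 kb, and that of Clec2i did not hold its start. Blk, described above and also among the 8 largest falls, had a domain of 10.7 kb. None of the 8 lay at a super-enhancer domain.

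At the widest domains the RNA did not move in 1 direction. Laptm5 had 792 and 590 FPKM in aB, against 324 and 332 FPKM in rB (log2 difference 1.06, SE 0.255, adjusted p = 0.0128), and its call was lost without rB replicate 1 (adjusted p = 0.0842) or 2 (adjusted p = 0.0721). Pim1 had 212 and 246 FPKM in aB, against 22.9 and 21.4 FPKM in rB (3.31, SE 0.188, adjusted p = 6.48e-05). Fli1 had 34.3 and 34.4 FPKM in aB, against 54.2 and 58.9 FPKM in rB (-0.70, SE 0.167, adjusted p = 0.0122), a call lost without rB replicate 1 (adjusted p = 0.0681) or 2 (adjusted p = 0.0997). Csk, Grap and Zfp36 did not pass, though Csk did under quantile normalization (-0.57, adjusted p = 0.0455). Zfp36 had 182 and 95.1 FPKM in aB and 295 and 202 FPKM in rB, so replicate 1 was the higher in both groups. Zfp36 passed with the replicate block (log2 difference -0.89, adjusted p = 0.0148, limma) and without aB replicate 1 (-1.35, adjusted p = 0.0126).

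Among other genes at super-enhancer domains, Rilpl2, which binds Rab GTPases, stood at 227 and 219 FPKM in aB, against 24.8 and 21.9 FPKM in rB (log2 difference 3.20, SE 0.185, adjusted p = 6.65e-05). Serp1, which stabilises membrane proteins in the endoplasmic reticulum, had 1104 and 958 FPKM in aB, against 354 and 411 FPKM in rB (1.43, SE 0.248, adjusted p = 0.00344). In each of these genes both aB samples were far above both rB samples. Chst3, a sulfotransferase, had 42.3 and 39.2 FPKM in aB, against 131 and 119 FPKM in rB (-1.60, SE 0.184, adjusted p = 0.000677). H2-DMa had 59.4 and 36.0 FPKM in aB, against 148 and 147 FPKM in rB (-1.65, SE 0.265, adjusted p = 0.00251), while its neighbour Brd2 in the same domain had 65.0 and 74.9 FPKM in aB and 76.9 and 67.1 FPKM in rB, which overlap.

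The remaining lists were mixed, beside 28.2% rises, 26.2% falls and 7.09% at a wide domain over all tested genes. Of 38 signal-dependent transcription factors 11 had a wide domain, of which 2 rose, 3 fell and 6 did not pass. Fewer rises passed when either rB replicate was left out. The median log2 difference of the 11 was then 0.17 and 0.22, against 0.18 with all samples. The widest were at Irf8 (13.1 kb), Junb, Jund, Nfkbia and Tcf4. Junb had 109 and 71.6 FPKM in aB and 160 and 78.4 FPKM in rB, so its groups overlapped. Ets1, which restrains plasma cell formation, had 55.2 and 60.8 FPKM in aB, against 214 and 233 FPKM in rB (log2 difference -1.93, SE 0.197, adjusted p = 0.000422). Tcf4, an E protein, had 34.7 and 35.5 FPKM in aB, against 21.8 and 25.3 FPKM in rB (0.56, SE 0.162, adjusted p = 0.0252). It lost its call under quantile normalization (0.38, adjusted p = 0.0547, limma). The call was also lost without rB replicate 1 (log2 difference 0.46), rB replicate 2 (0.66) or aB replicate 2 (0.54). Of 28 activation, homing and receptor genes 12 had a wide domain, with 4 rises, 6 falls and a median log2 difference of -0.57. Fewer falls passed without aB replicate 2, rB replicate 1 or rB replicate 2 (medians -0.24, -0.51 and -0.54). The share of falls over all tested genes was also lower in these fits. Cxcr5, the follicle homing receptor, had 80.3 and 80.5 FPKM in aB, against 201 and 217 FPKM in rB (-1.37, SE 0.196, adjusted p = 0.00160). Tnfrsf13b, the receptor TACI, had 96.9 and 99.8 FPKM in aB, against 30.9 and 25.9 FPKM in rB (1.76, SE 0.182, adjusted p = 0.000443).

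Genes on a list of cytoskeletal, signalling and membrane proteins of lymphocytes often had a wide domain (15 of 20, against 7.09% of all tested genes). Of these 15, 1 rose (Laptm5, of the lysosomal membrane), 5 fell and 9 did not pass, against 28.2% rises and 26.2% falls over all tested genes. Pfn1 (profilin), at an 11.6 kb super-enhancer domain, had 869 and 951 FPKM in aB and 1026 and 1049 FPKM in rB (adjusted p = 0.541). Its domain also held the starts of Rnf167, a ubiquitin ligase, and Eno3, an enolase, which had the largest falls at super-enhancer domains (log2 differences -1.69 and -1.72, adjusted p = 0.00116 and 0.00151, limma). Rnf167 had 30.8 and 20.9 FPKM in aB, against 81.2 and 86.8 FPKM in rB. Actb had 1201 and 1400 FPKM in aB and 1405 and 1696 FPKM in rB (adjusted p = 0.463). Fewer falls of this list passed without rB replicate 1, rB replicate 2 or aB replicate 2, as over all tested genes. The median log2 differences were then -0.29, -0.17 and -0.25, against -0.2 with all samples. The rise of Laptm5 did not pass when either rB replicate was left out. Of 20 cell cycle and growth genes 2 (10.0%) had a wide domain, near the 7.09% of all tested genes. These were the G1 regulators Ccnd2 and Cdk6, and both rose. The Cdk6 call was lost with every gene above 0 tested (log2 difference 0.92, adjusted p = 0.0573, limma). It was also lost without aB replicate 2 (0.6) or rB replicate 2 (0.74). The other 18 had narrower or no peaks and 17 of them rose, so a rise in RNA did not go with a wide domain in that list. Ccnd2 had 102 and 181 FPKM in aB, against 17.8 and 16.5 FPKM in rB (2.91, SE 0.281, adjusted p = 0.000345).

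The counts were also split by the H3K4me3 cover of the domain and by its STARR peaks, beside 28.2% rises and 26.2% falls over all tested genes. Genes at domains with H3K4me3 on at least 50% of their length had 124 rises and 195 falls among 571 tested (21.7% and 34.2%), those with H3K4me3 on less 56 and 67 among 197 (28.4% and 34.0%), and those without it 30 and 30 among 91 (33.0% each), where a gene at several domains counts in each class it touches. With no STARR peak in the domain 57 genes rose and 74 fell among 213 (26.8% and 34.7%), with 1 peak 26% rose and 32.5% fell, with 2 peaks 19.9% rose and 38.6% fell, and with 3 or more 27 rose and 35 fell among 110 (24.5% and 31.8%). The median level at the domains with 3 or more STARR peaks was 24.3 and 23.2 FPKM in aB and 25.1 and 25.4 FPKM in rB, and at those with none 27.2 and 24.9 FPKM in aB and 29.9 and 29.5 FPKM in rB. No test of these differences was made.

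Of the microRNA genes, 10 lay at wide domains, and all 10 were listed at 0 in all 4 samples of the RNA table, so that table gives no level for them. Mature sequences of 4 are shown, because Mir142 lay at a 15.1 kb super-enhancer domain and Mir191 and Mir425 shared a domain of 6.23 kb. MiR-142 is abundant in blood cells. The sequences are from RefSeq (GRCm38.p6), 5′ to 3′, with the seed (bases 2 to 8) in capitals, and no 2 of them share a seed.
mmu-miR-142a-5p: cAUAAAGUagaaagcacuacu
mmu-miR-142a-3p: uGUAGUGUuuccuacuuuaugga
mmu-miR-191-5p: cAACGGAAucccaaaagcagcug
mmu-miR-425-5p: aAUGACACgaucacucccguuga

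The deposited Hi-C list holds 27903 distinct contacts between anchors of 500 bp to 5 kb, each with at least 5 reads over pooled replicates (median 7), and was filtered by the authors for enhancers and promoters. Of these contacts 5410 (19.4%) touched a wide domain. An anchor overlapped 827 of the 1022 wide domains (80.9%, exact 95% binomial interval 78.4 to 83.3%), against 70.3% of peaks of 2 kb to under 4 kb and 39.2% of narrower ones. It overlapped 46 of the 48 super-enhancer domains (95.8%), against 80.2% of the other wide domains. The median number of contacts was 9 in super-enhancer domains and 4 in the others. Per kb, super-enhancer domains had 1.03 contacts, against 0.957 in the other wide domains. Wide domains as a whole had 0.963 contacts per kb, fewer than the 1.48 and 1.67 per kb in the peaks of 2 kb to under 4 kb and the narrower ones. A 5 kb anchor is longer than most narrow peaks and counts at any overlap, which raises the contacts per kb of narrow peaks. The order of these densities by width therefore cannot be read as a difference in contacts, and they hold for this set of anchors only.

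The domain with the most contacts, 52, lay at Cnn2, an actin-binding calponin, and Tmem259 and was 7.09 kb wide. It was followed by 42 at Atp6v1g2 and Nfkbil1 (4.50 kb), 41 each at Zfp36 and at Rilpl2, 32 at Ier2, an immediate early gene, and 31 at Midn (midnolin). Of the domains with no H3K4me3 peak 59.8% had an anchor, at 0.364 contacts per kb, against 85.9% and 1.09 contacts per kb in those with the mark. The widest heavy chain domain and the super-enhancer domain at the lambda genes had no contact and the widest kappa domain 1. Of the 7 wide domains between Hira and Olfr164, 3 had a contact.

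Most contacts of wide domains led to narrower peaks. In 4580 contacts 1 end lay in a wide domain, and the other end was a peak of 2 kb to under 4 kb in 35.3%, a narrower H3K27ac peak in 48.7%, a FAIRE peak without either histone mark in 7.58% and none of the lists in 5.24%. For anchors of contacts that touch no wide domain these shares were 27.8%, 55.2%, 8.01% and 5.25%. In 468 contacts the ends lay in 2 different wide domains, which made 337 pairs among 412 domains. Ier2 and the domain at Lyl1 and Trmt1 shared the most contacts, 8, over 39.8 kb, with up to 101 reads. Of all wide domains, 3 had 6 wide partners each, at Junb, at Brd2 and H2-DMa, and at Stoml1. Another 362 contacts joined 2 points of 1 wide domain, with a median distance of 2.16 kb, against 226 kb for contacts between wide domains.

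Of the 193 wide domains without a gene locus 137 had a contact, and in 126 the other anchor lay at an end of a gene locus. A super-enhancer domain of 11.6 kb (chr17:34427852-34439479) lay between H2-Aa and H2-Eb1, genes of MHC class II chains, only 3.13 kb and 3.33 kb from their loci. Its contacts with these genes had up to 316 and 338 reads. A super-enhancer domain of 7.51 kb lay 91.8 kb from Pim1, and its contact with that gene had 205 reads. A domain of 7.45 kb that lay 172 kb from Prdm1 had 1 contact, which led to Prdm1 with 53 reads. The super-enhancer domain of 13.7 kb between Spock2 and Chst3 was in contact with Chst3, 8.59 kb away (77 reads). That of 11.9 kb near Tnfrsf13b was in contact with Tnfrsf13b, 9.32 kb away (20 reads). In RNA, Pim1, Prdm1 and Tnfrsf13b rose and Chst3 fell, with the values given above. The read counts fall with distance in Hi-C, and the shorter of these contacts are not comparable with the longer ones.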

How the data were processed

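The members and the gene lists were chosen with earlier results of these data known. Per the submitters' processing notes, Bowtie, Bowtie2, TopHat2, STAR, HOMER and bedtools were used with the genome build mm9; which tool made which file is not given in the sources used here. The deposited RNA values carry no unit and were treated as FPKM (fragments per kilobase, scaled to mapped reads) as made by the authors, because most are fractional and sample totals vary; depth and strand of counting are unknown, so overlapping, antisense and near-identical genes are uncertain. The deposited peak lists give positions only, with 1 list per assay (the labels name those of FAIRE-seq and ChIP-seq beside replicate 1, and a single STARR list for 12 h and 24 h), so replicates cannot be compared at the level of peaks. The deposited Hi-C list gives the authors' read pair count for each contact, over pooled replicates, and a score against their background model that was not used as a filter. Values of H3K4me1, nascent RNA, the plasmid library and rB ChIP-seq were not analysed here.

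Peaks were set against domains with Python 3.11.15 and pandas 2.3.3 after duplicate rows were removed: H3K4me3, genes and Hi-C anchors by an overlap of at least 1 bp, FAIRE and STARR peaks by their centre. Intervals are exact binomial or Poisson (95%) and cover counting error only. Gene starts used the RNA table's loci and the strand of RefSeq (GRCm38.p6) by symbol. The test was limma 3.58.1 (R 4.3.3, trend and robust) on log2(FPKM + 1) of genes that reached 1 FPKM in 2 or more samples, aB against rB, without a block; adjusted p is Benjamini-Hochberg over all 10863 tested genes. A fold change on this scale understates that of low genes. The script was tested on simulated data. Named were the 10 widest domains, the 6 with the most STARR peaks and the 6 with the most contacts, the 4 widest without each kind of peak, the 8 largest rises and falls (samples not overlapping, mean of at least 5 FPKM in the higher group), and up to 5 members per list with the widest domains. Some named items are not reported here. Chosen after their values were seen were Ets1, Tnfrsf13b, the secretion genes beyond 5, the super-enhancer genes described and the contacts of domains without a gene. In 27 rows the symbol was a date, and 265 symbols stood on several rows; these were counted, never named. Alternatives were other width limits, overlap rules, filters, pseudocounts, scalings, a replicate block and leaving out each RNA sample.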

Additional observations from a re-analysis of the deposited data

How the results depend on the processing

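The width limit sets the count of domains: 1968 qualified at 3 kb and 572 at 5 kb. At 3 kb the domains held 0.683 FAIRE peaks per kb, 356 genes rose, 457 fell and 77.3% had a Hi-C anchor. At 5 kb 85.0% had H3K4me3, 123 genes rose, 155 fell and 87.1% had an anchor. Over all tested genes 3066 rose and 2844 fell. H3K4me3 overlapped 86.9% of domains with a gene row (chosen after seeing the data) and covered at least 50% of the width in 52.6%. Counting only STARR peaks in FAIRE peaks gave 0.186 per kb. Anchors counted by their centre reached 76.2% of domains, and contacts with at least the median read count 69.8%. Leaving out 1 RNA sample gave 133 to 183 rises and 168 to 274 falls, where the lone sample left in a group was assumed to vary like the other group. Under the replicate block 206 genes at wide domains rose (26.8%) and 276 fell (35.8%), against 30.5% and 27.3% of all tested genes. Same-numbered samples deviated together only weakly (r = 0.124 across genes), and no label says that the numbers pair samples. The block ended 7 of 181 calls of named genes, having no filter 27 of 181, leaving out aB replicate 1 13 of 175, aB replicate 2 33 of 175, rB replicate 1 42 of 164 and rB replicate 2 46 of 164. Scaling to the upper quartile moved the median of all tested genes to -0.09 (0.03 without it) and gave 174 rises and 312 falls at wide domains; quantile normalization gave 176 and 313. Under quantile normalization the log2 differences of Cd74 (0.02, adjusted p = 0.958) and Tmsb4x (0.15, adjusted p = 0.692) turned positive; the cause was not tested. The other filters, pseudocounts and overlap rules kept both counts within 1.5 times. The depth of the RNA values is unknown.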
